A study of Mus musculus with 14 samples.

Results

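Heat shock proteins, chaperones and cochaperones were described as 48 genes among the 35271 of the expression table, taken by their names from a list that was made with earlier results of these data known. All 48 had a row. They were read in 14 single cells, each labelled a mesangial cell of the kidney glomerulus and each a sample of its own. The cells came from 1 wild type male mouse of 8 weeks, whose strain is spelled C57BL/6 in the design text and C56BL/6 in the sample labels. Glomeruli were enriched with magnetic beads and dissociated with enzymes, and a microfluidic instrument (Fluidigm C1) isolated and lysed the cells and made their cDNA. The labels name no treatment and put all cells in 1 group, so no conditions were compared. With 1 animal the values describe these cells, and no p-value was computed from cells.

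Chaperones bind unfolded or partly folded proteins and help them reach their native state. HSP70 proteins bind short exposed stretches in a cycle driven by ATP, in which J proteins start ATP hydrolysis and nucleotide exchange factors release the substrate. HSP90 proteins act later on selected clients with a set of cochaperones, and the ring-shaped chaperonins enclose whole chains such as actin and tubulin. Separate family members serve the cytosol, the mitochondria and the endoplasmic reticulum. Part of the cytosolic set is induced by heat or damaged protein through the transcription factor HSF1, and part of the reticulum set through the unfolded protein response. Mesangial cells are contractile and secrete matrix, so both actin folding and folding of secreted proteins are part of their normal work.

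The authors deposited RPKM, read counts scaled by gene length and library size. Detection here means an RPKM of 1 or more, and a level of 10 or more is called high, and levels on a log scale are log2(RPKM + 1). Read totals recovered from the steps of the values ran from about 6598130 to 23815600 reads per cell, so that an RPKM of 1 on a transcript of 2 kb stands for 13.2 to 47.6 reads. Cells had 1770 to 5277 detected genes. GL_M_36 and GL_M_47 stood above the rest with 5277 and 4842. Of 9 mesangial marker genes, 6 to 8 were detected in each cell, led by Gata3 and Serpine2 in all 14, whereas Tbx18 was undetected. Of 9 endothelial markers 7 were detected in GL_M_30, at 12.7 to 1635 (Plvap, Emcn, Kdr, Flt1, Egfl7, Tie1 and Cdh5), and 0 to 5 in the other cells. Of 7 podocyte markers 5 were detected in GL_M_55 and 0 to 3 elsewhere. In GL_M_55 Wt1, Synpo, Cd2ap and Thsd7a were at 195 to 613. Single markers of both lists were also high in GL_M_36 (Plvap, Emcn, Synpo, Cd2ap) and GL_M_47 (Plvap, Esam, Wt1, Synpo), and Synpo was high in GL_M_30. Markers of both lists were high in other cells too, among them GL_M_75 (Emcn 733, Plvap 112), GL_M_91 (Emcn 902) and GL_M_29 (Wt1 447). At 10 or more, GL_M_75 had 3 endothelial markers, and GL_M_29, GL_M_36, GL_M_47 and GL_M_85 had 2 each. The other 4 marker lists reached 0 to 2 genes in any cell. For smooth muscle these were Tagln and Acta2, at most 1.68 and 1.15, for the leukocyte list mainly Fcer1g (923 in GL_M_85) and Cd3d (5.62 at most). Akr1b7 of the renin cell list reached 28.1 and Ren1 was at 0. Slc5a2 and Lrp2 of the proximal tubule stayed below 1. The part of these transcripts in the members' values was not tested. Counts are also given without GL_M_30 and GL_M_55 and, separately, without GL_M_36 and GL_M_47. The cells kept still carried some of the endothelial and podocyte markers.

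The chaperone genes ranged from a few detected at high level in nearly every cell to many detected in a few cells. Of the 48 members 3 were detected in every cell, 6.25%, against 0.454% of all genes in the table. In 7 or more cells 17 members were detected, 35.4% against 5.93% of all genes. Detected in at least 1 cell were 45 members, 93.8% against 29.2%. Among genes detected in some cell the contrast was smaller. There, 6.67% of 45 members and 1.55% of 10300 genes were in every cell, and 37.8% of members and 20.3% of genes in 7 or more. For 7 or more cells the background was 9.01% among protein-coding genes and 26.2% among genes with a mean of 1 or more, beside 34.0% of 47 and 40.5% of 42 members. The median member was detected in 4 cells. Detected in exactly 1 cell each were 4 members, 8.33% against 8.36% of all genes in the table. Among genes detected in some cell these were 4 of 45 members, 8.89%, against a larger share of genes, 2947 of 10300. In no cell were 3 members detected. High levels in every cell were found for 1 member, 2.08% against 0.204%, and in 7 or more cells for 11, 22.9% against 3.08%. Above 0 in every cell were 10 members, 20.8% against 2.96%. With the limit at 6 of 12 cells, the count of 17 was 17 without GL_M_30 and GL_M_55, and 15 without GL_M_36 and GL_M_47.

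Member values lay more often at high levels than those of all genes detected in some cell. Of the 672 values of 48 members in 14 cells, 39.7% were 0 and 21.7% lay between 0 and 1, against 47.1% and 24.2% of the values of all genes detected in some cell. Between 1 and 10 lay 9.97% of member values, against 10.7%, and between 10 and 100 lay 8.18%, against 8.85%. At 100 or more were 20.4% of member values, against 9.14%. Values between 0 and 1 were fewest in GL_M_11, at 3 members, and most in GL_M_55 and GL_M_91, at 20 each. The map of levels by role shows the values of every cell.

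**Figure D1:**
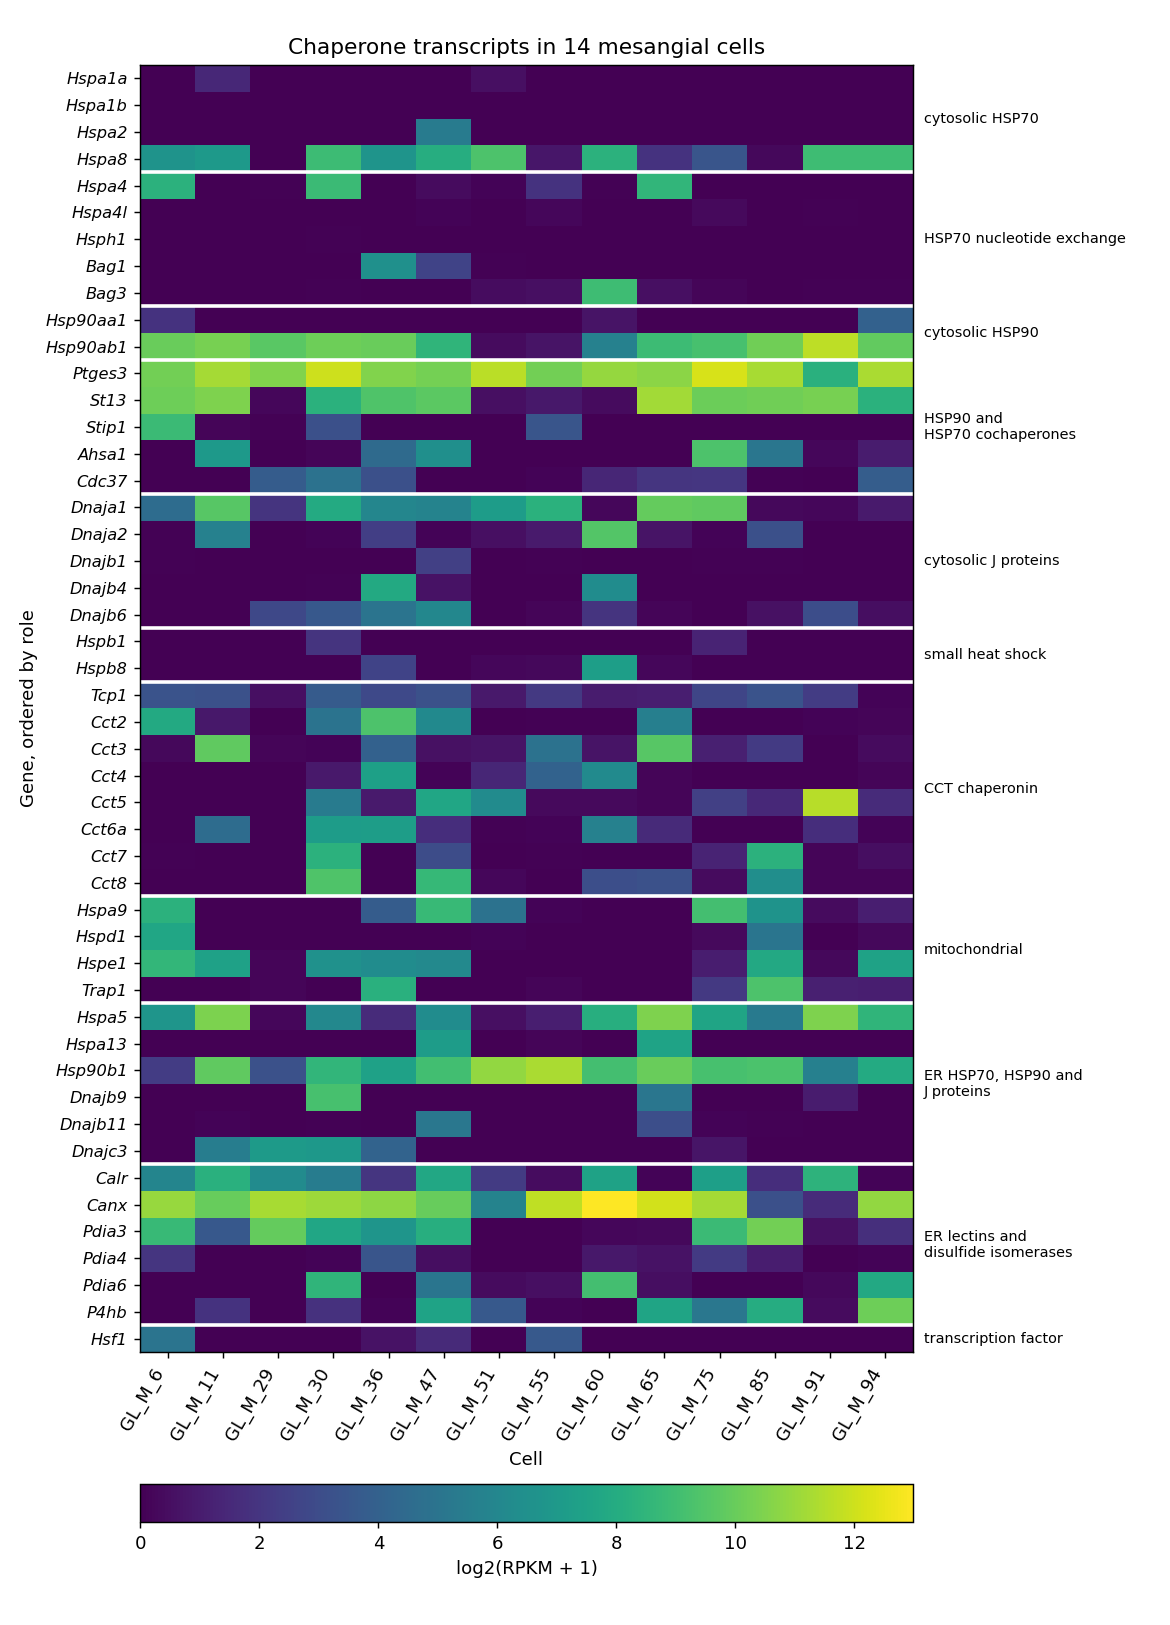
Level of each of the 48 genes (rows, grouped by role) in each of the 14 cells (columns), as log2(RPKM + 1). Ptges3, Hsp90b1 and Canx are the rows detected in all 14 cells, while rows such as Bag3 or Hspa2 are lit in 1 cell.

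Ptges3, the HSP90 cochaperone also called prostaglandin E synthase 3, had the highest mean log2 level of all members, while Canx had the higher median and maximum. The RPKM of Ptges3 ran from 299.7 in GL_M_91 over a median of 1833 to 4715 in GL_M_75. It was high in all 14 cells, a share with an exact 95% Clopper-Pearson interval of 76.8% to 100%. Its mean log2(RPKM + 1) was 10.81 ± 0.98 (SD, n = 14 cells of 1 mouse), which placed it 14th of all genes in the table by mean level. The highest cell was 15.7 times the lowest, the smallest such ratio among the 10 members that were above 0 in every cell. On GRCm38 the gene (ENSMUSG00000071072) begins on chromosome 10 at 128058954, plus strand. Of its transcript sequence 19.6% is shared with other annotated genes, nearly all with the pseudogene Ptges3-ps, so part of its reads could be assigned either way.

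Cytosolic HSP90 in these cells was the beta form. Hsp90ab1, the constitutive cytosolic HSP90, had an RPKM of 0.298 to 3251 with a median of 866 and was high in 12 of 14 cells (57.2% to 98.2%). The 2 cells without it were GL_M_51 at 0.298 and GL_M_55 at 0.598. Hsp90aa1, the stress-inducible alpha form, was listed at 0 in 11 cells and detected in GL_M_94 at 15.4 and GL_M_6 at 2.71. It lay below Hsp90ab1 in all 14 cells. Hsp90aa1 shares 47.5% of its sequence with other annotated genes, mainly the pseudogene Gm12346, and how reads with several matches were counted is not known from the labels, so its low values are uncertain. Hsp90ab1 shares 3.44%.

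Among the cochaperones of HSP90 and HSP70, St13 came next after Ptges3. St13, which links HSP70 and HSP90, was either high or near 0, at 312 to 2286 in 10 cells and at 0.185 to 0.787 in GL_M_29, GL_M_51, GL_M_55 and GL_M_60. No cell lay between. Ahsa1, the activator of the HSP90 ATPase, was high in 5 cells and peaked at 652 in GL_M_75. Cdc37, which brings kinases to HSP90, was detected in 7 cells but never above 29.2. Stip1, the HSP70 to HSP90 adaptor, was detected in 3 cells, and 96.3% of its summed RPKM came from GL_M_6, at 467. GL_M_51 and GL_M_55, which lacked Hsp90ab1, also had St13, Ahsa1 and Cdc37 below 1. Stip1 was at 0 in GL_M_51 and at 9.88 in GL_M_55, and both carried Ptges3, at 3194 and 1181. Their gene counts of 1894 and 2407 were among the lowest 4 of the 14 cells. At 10 or more, GL_M_55 had 5 podocyte markers, and GL_M_51 had 2, as did GL_M_36, GL_M_47 and GL_M_91. The part of gene counts and of these markers in the low values was not tested.

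Among the cytosolic HSP70 genes Hspa8 was widespread, and Hspa1a and Hspa1b had low values. Hspa8, the constitutive HSP70 of the cytosol, had a median RPKM of 115 and reached 650.5 in GL_M_51, and was detected in 11 cells (49.2% to 95.3%). It shares 39.4% of its sequence, mostly with the pseudogene Gm15459. It was below 1 in GL_M_29, GL_M_55 and GL_M_85 and low in GL_M_65 and GL_M_75, at 2.80 and 9.82. Hspa1a, an inducible HSP70 gene, was detected in GL_M_11 at 1.72 and was below 1 in the others. Hspa1b, its near copy, did not exceed 0.0280. Their transcript sequences are shared with other genes to 66.3% and 62.3%, mostly with each other, so low values of these genes are uncertain. Hspa2, an HSP70 best known from testis, was at 40.8 in GL_M_47 and 0 in the other 13 cells. Members of other roles that are known to respond to heat differed. Hsph1 and Hspa4l, of the HSP110 group that exchanges nucleotide on HSP70, were undetected and reached 0.0595 and 0.235. Dnajb1, an inducible J protein, was at 4.59 in GL_M_47 only, and Hspb1, the small heat shock protein HSP25 of the mouse, reached 2.83 in GL_M_30. Others of this kind, such as Dnaja1, Hspe1 and Bag3, reached 950, 389 and 485 in some cell. Hspb1 shares 50.1% of its sequence, while Hsph1 shares 0% and Dnajb1 0.412%.

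Some inducible and reticulum chaperones are known for short elements in their promoters, and these are shown to set the sequence beside the level. RefSeq windows of 300 bases, 250 before and 50 after each start on GRCm38.p6, were matched for 40 of the 48 members. The members without a window include Hspa8, Hsp90aa1, Hsp90ab1 and St13. The search used GAANNTTC and TTCNNGAA, heat shock elements of a pair of units, and a longer form in which NNGAA follows GAANNTTC and which holds both of these. It also used the reticulum stress element, CCAAT and CCACG with any 9 bases between. Both strands were searched, and a gene counts as matched if any of its windows is. The longer form was found in 4 of the 40 members, Hspd1, Hspe1, Hsph1 and Dnajb6, and in 0.662% of 27025 genes. Hspd1 and Hspe1 hold the same bases, read from opposite strands of overlapping windows. In Hsph1 it lies after the start. A shorter form was found in 15 members, 37.5%, against 17.0% of genes. The bases before the start of Hspa1a are shown since this gene is the best known inducible HSP70, with the GAANNTTC match in capitals, at positions -104 to -97, where -1 is the base before the start.
Hspa1a, chr17:34972157-34972406, minus strand: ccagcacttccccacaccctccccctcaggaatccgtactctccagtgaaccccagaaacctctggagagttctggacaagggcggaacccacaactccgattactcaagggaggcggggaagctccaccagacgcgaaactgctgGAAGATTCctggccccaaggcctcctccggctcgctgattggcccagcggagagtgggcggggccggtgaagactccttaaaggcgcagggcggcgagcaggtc
The windows of Hspa1a and Hspa1b differed at 4 of 300 positions. A match is a description of letters and not evidence of binding.

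HSF1 itself was rare as a transcript. Hsf1, the master activator of the heat shock response, was detected in 3 cells, at 30.7 in GL_M_6, 11.4 in GL_M_55 and 1.90 in GL_M_47. GL_M_6 was also the highest cell for Hspe1, Hspd1 and Stip1, at 389, 201 and 467, and had Hsp90aa1 at 2.71. GL_M_47 had Dnajb1 at 4.59, and none of the 3 had Hspa1a or Hspb1 at 1 or more. In the companion list of heat shock factors, Hsf2 was detected in 2 cells, Hsf4 was at 0 in all, and Hsbp1, a small protein that binds HSF1, was detected in 10 cells with up to 2256. Genes of the early response to cell dissociation were set beside them. Of 18 such genes 11 were detected in some cell, where the share of all genes was 29.2%, and 7 in none. In every cell 0 were detected, near the background of 0.454% of all genes. The median gene of the list was detected in 1 cell, and the median over all genes was 0. Klf6, Dusp1 and Klf2 were the strongest, in 7, 6 and 7 cells, with up to 350, 673 and 285. GL_M_11, the cell with Hspa1a above 1, had 0 of the 18 detected, and the most were 6, in GL_M_36 and GL_M_47.

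J proteins and exchange factors varied from cell to cell. Dnaja1, a general J protein partner of HSP70, was detected in 10 cells with a median of 57.4 and up to 950 in GL_M_65. Its relative Dnaja2 was detected in 4 cells, and 91.6% of its sum came from GL_M_60 at 728. GL_M_60 was the cell in which Dnaja1 was lowest, at 0.186. Dnajb6, known for suppressing aggregation, was detected in 6 cells at 2.90 to 64.1, and Dnajb4 in 2, GL_M_36 and GL_M_60, at 232 and 79.3. Hspa4, another HSP110 family member, was above 100 in GL_M_6, GL_M_30 and GL_M_65 and at most 2.75 elsewhere. Bag3, which couples HSP70 to autophagy, was at 485 in GL_M_60 and below 1 in the other 13. Hspb8, the small heat shock protein that forms a complex with BAG3, was highest in the same cell, at 153, and otherwise reached 5.11 in GL_M_36. Bag1, an exchange factor that links HSP70 to the proteasome, was at 90.0 in GL_M_36 and 5.16 in GL_M_47.

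**Figure D2:**
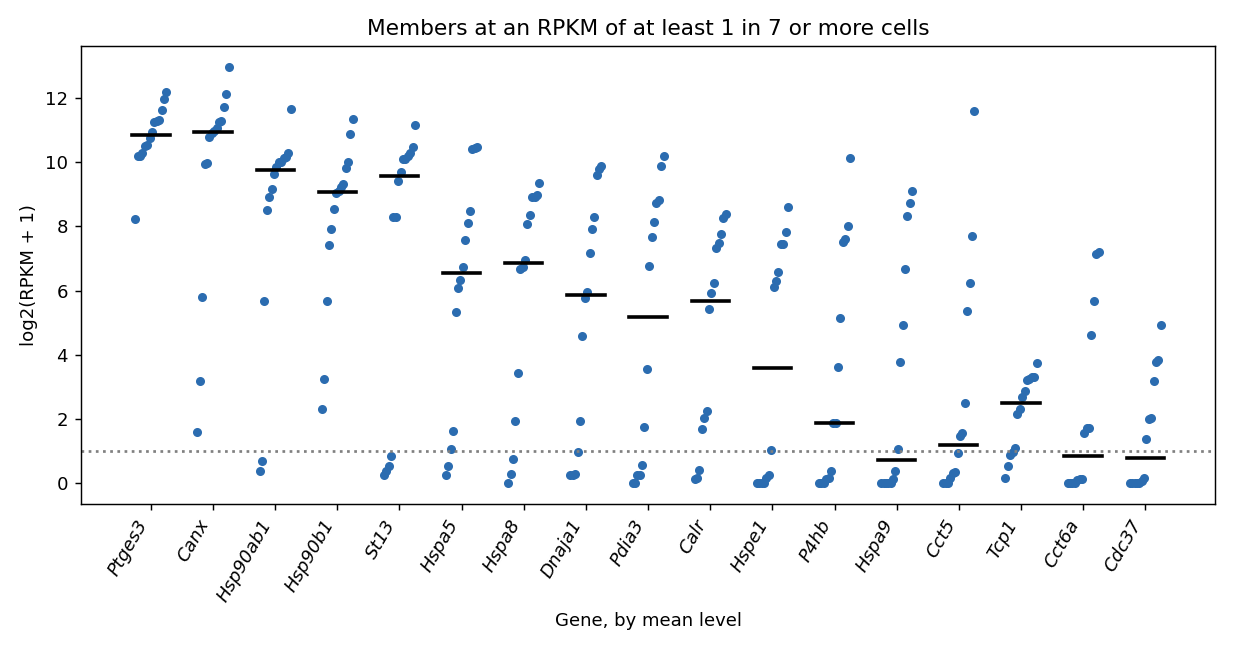
Levels, as log2(RPKM + 1), of the 17 members detected in 7 or more cells, ordered by mean level; each point is 1 of 14 cells, sorted within the gene, bars are medians and the dotted line is an RPKM of 1. Ptges3 has all cells at 299.7 RPKM or more, whereas St13 and Hspe1 have a gap between high cells and cells near 0.

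The cytosolic chaperonin CCT is a ring of 8 different subunits that folds actin and tubulin, and no cell had transcripts of all 8 at 1 or more. Its median subunit was detected in 5.5 cells, where the median over all genes detected in some cell was 3. The number detected ran from 0 in GL_M_29 to 6 in GL_M_30 and GL_M_47, with a median of 3, and 4 cells had 3. In the other cells it was 1 in GL_M_94, 2 in GL_M_6 and GL_M_51, 4 in GL_M_75 and 5 in GL_M_36, GL_M_65 and GL_M_85. Which subunit was highest changed from cell to cell, and 7 of the 8 were highest in some cell. Cct5 was at 3076 in GL_M_91, which held 90.2% of its sum, where Cct2, Cct3, Cct4, Cct7 and Cct8 were all below 1. Cct3 peaked at 904 in GL_M_11 and 769 in GL_M_65, Cct2 at 650.1 in GL_M_36 and Cct8 at 683 in GL_M_30. Cct7 was high in GL_M_30 and GL_M_85, at 318 and 324, and at most 7.07 elsewhere. Cct4 and Cct6a reached 168 and 146, both in GL_M_36.

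Tcp1, the alpha subunit, was detected in the most cells of the 8 and had the lowest maximum. It was detected in 10 cells and, like Cct3, above 0 in all 14, but never above 12.3, with a mean log2(RPKM + 1) of 2.17 ± 1.21 (SD, n = 14 cells of 1 mouse). Of its exon bases 16.9% overlap other annotated genes, among them Mrpl18 and Acat3 on the opposite strand, and whether counting used strand is not known from the labels. In the 12 cells with 2 or more subunits, the highest detected subunit exceeded the lowest by 4.61 to 1342 times, with a median of 79.7. Leaving Tcp1 out gave 1.77 to 1342 times in 11 cells, with a median of 42.0. The annotation classes Cct6a as a processed transcript and the other 47 members as protein-coding.

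**Figure D3:**
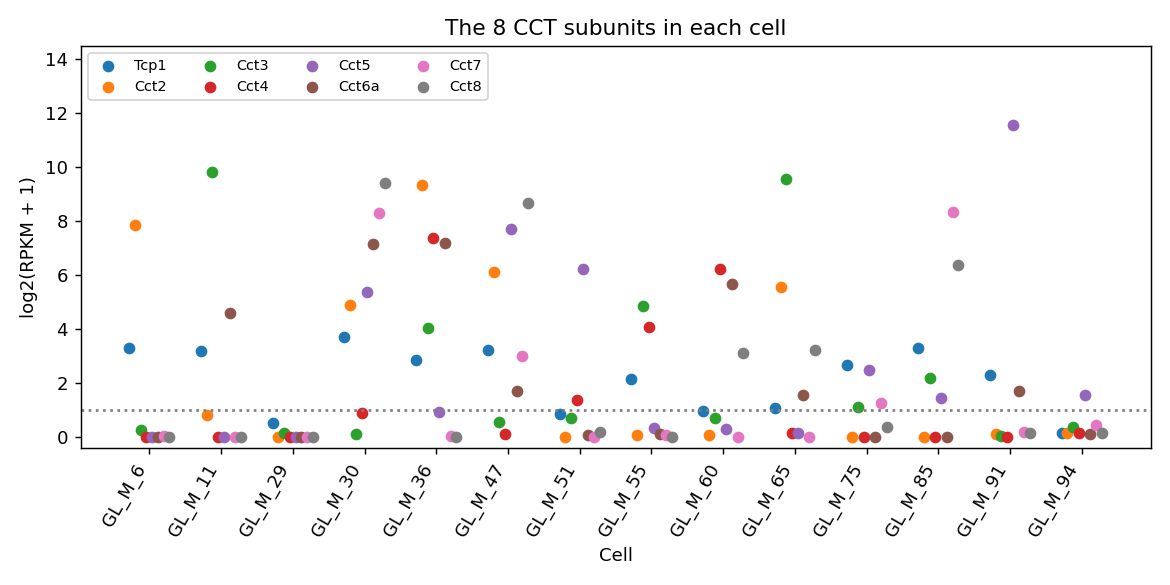
Levels of the 8 CCT subunits, as log2(RPKM + 1), in each of the 14 cells, 1 colour per subunit; the dotted line is an RPKM of 1. The leading subunit differs between cells, with Cct3 in GL_M_11, GL_M_55 and GL_M_65 and Cct5 in GL_M_51, GL_M_91 and GL_M_94; GL_M_29 has none above the line and GL_M_30 and GL_M_47 have 6.

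Prefoldin, which hands actin and tubulin to CCT, had 1 to 4 of its 6 subunits detected per cell. Its median subunit was detected in 5 cells, where the median over all genes detected in some cell was 3. Pfdn5 was the most common, in 12 cells with a median of 125, and Vbp1, Pfdn1 and Pfdn4 were each detected in 5.

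Mitochondrial chaperones were detected in some cells and not in others. Hspe1, the lid of the mitochondrial chaperonin, was detected in 8 cells (28.9% to 82.3%) and reached 389 in GL_M_6. Hspd1, the barrel of the same machine, was detected in 2 of these cells, GL_M_6 at 201 and GL_M_85 at 31.6, and in no cell without Hspe1. Both were undetected in 6 cells. Hspa9, the HSP70 of the matrix, was detected in 7 cells with up to 554 in GL_M_75, and Trap1, the mitochondrial HSP90, was high in GL_M_85 at 657 and GL_M_36 at 306. GL_M_85 was the only cell with all 4. GL_M_29, GL_M_55, GL_M_60 and GL_M_65 had none. Hspd1 shares 42.1% of its sequence with other genes, mostly with the pseudogene Hspd1-ps3, and Hspe1 22.8%, mostly with AC117239.2. Exons of both also overlap on opposite strands, so the difference between them is uncertain. Among 11 other genes of mitochondrial protein quality, Yme1l1, an inner membrane protease, was detected in all 14 cells with a median of 48.9, and Dnajc19 and Lonp1 in 4 and 5.

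Hspd1 and Hspe1 lie head to head, and 1 of the 2 Hspd1 windows covers 285 bases of the Hspe1 window. The bases before the start of Hspe1 are shown since the element in them lies between the Hspe1 start and the Hspd1 start of that window. The window of the other Hspd1 start held none. Capitals mark an overlapping run of heat shock elements at positions -89 to -72.
Hspe1, chr1:55087898-55088147, plus strand: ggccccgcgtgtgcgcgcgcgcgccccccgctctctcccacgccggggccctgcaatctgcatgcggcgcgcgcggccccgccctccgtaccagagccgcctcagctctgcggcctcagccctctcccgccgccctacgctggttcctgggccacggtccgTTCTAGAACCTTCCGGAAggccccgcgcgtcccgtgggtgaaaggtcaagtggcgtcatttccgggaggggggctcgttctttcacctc

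The endoplasmic reticulum held the remaining 2 genes detected in all 14 cells. Canx, the membrane-bound lectin chaperone calnexin, had the highest single value of all members, 8076 in GL_M_60, and a median of 1969. It was high in 12 cells and low in GL_M_85 at 8.03 and GL_M_91 at 1.997. Its mean log2(RPKM + 1) was 9.54 ± 3.46 (SD, n = 14 cells of 1 mouse), the 37th of all genes. Calr, the soluble lectin calreticulin, was lower, with a median of 50.8 and detection in 11 cells. Calr exceeded Canx only in GL_M_91, at 337 against 1.997. On GRCm38, Canx (ENSMUSG00000020368) begins at 50293961 on chromosome 11 and Hsp90b1 (ENSMUSG00000020048) at 86690209 on chromosome 10, both minus strand, as the lower ends of the genes.

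Hsp90b1, the HSP90 of the reticulum known as GRP94, ran from 3.90 in GL_M_6 to 2605 in GL_M_55, with a median of 543 and a mean log2(RPKM + 1) of 8.13 ± 2.68 (SD, n = 14 cells of 1 mouse). Its highest cells, GL_M_55 and GL_M_51 at 1867, were those in which cytosolic Hsp90ab1 was below 1, an observation made after the values were seen. Its lowest cells, GL_M_6 and GL_M_29, had Hsp90ab1 at 1027 and 803. Hsp90b1 exceeded Hsp90ab1 in 6 of 14 cells. Of its exon bases 15.7% overlap other genes, one of them antisense. Hspa5, the reticulum HSP70 known as BiP, was detected in 12 cells with a median of 92.8, and GL_M_11, GL_M_65 and GL_M_91 stood out at 1364, 1414 and 1409. It was below 1 in GL_M_29 and GL_M_51. Hspa5 and Hsp90b1 are often induced together, and here their levels had a Pearson r of 0.03 and a Spearman rho of -0.02 over the 14 cells, which share 1 animal and differ in depth.

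**Figure D4:**
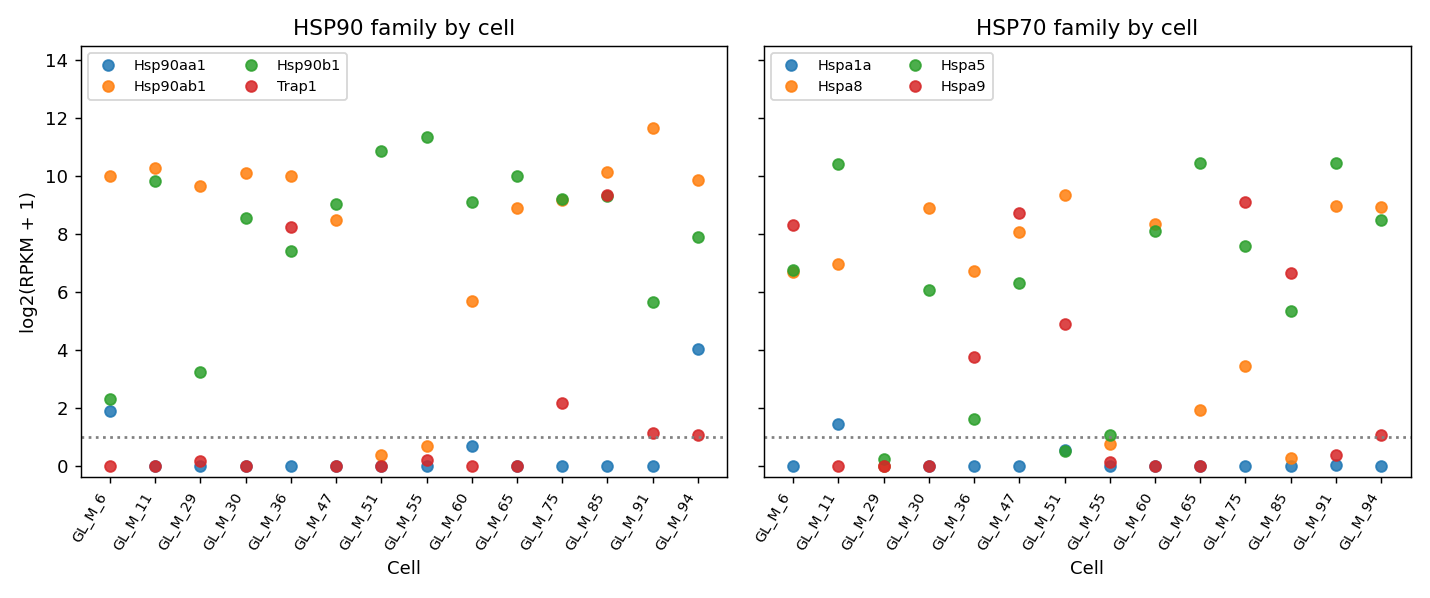
Levels of HSP90 family members (left) and HSP70 family members (right), as log2(RPKM + 1), in each of 14 cells; the dotted line is an RPKM of 1. Hsp90ab1 lies below the line in GL_M_51 and GL_M_55, where Hsp90b1 is highest, and Hspa1a is above the line in GL_M_11 only.

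Of the disulfide isomerases, Pdia3, which works with calnexin on glycoproteins, was the most common, in 9 cells with a median of 59.9 and up to 1177 in GL_M_85. P4hb, the founding disulfide isomerase and a subunit of prolyl hydroxylase for collagen, was detected in 8 cells and peaked at 1127 in GL_M_94. Pdia6 was high in 4 cells, from 32.4 in GL_M_47 to 554 in GL_M_60, and Pdia4 never exceeded 9.59. The J proteins of the reticulum were rarer than their HSP70. Dnajc3 was high in 4 cells, at 16.6 to 135, and Dnajb9 and Dnajb11 were detected in 2 cells each, as was Hspa13, a microsomal HSP70. GL_M_65 held Hspa13, Dnajb9 and Dnajb11 together, at 184, 32.7 and 7.64, with its Hspa5 of 1414. GL_M_11 and GL_M_91, with Hspa5 at 1364 and 1409, had all of them below 1, though Dnajb9 in GL_M_91 was just under the limit, at 0.998.

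The reticulum stress element was found in the windows of 6 of the 40 members, which were Hspa5, Hsp90b1, Canx, Calr, Pdia6 and Dnajc3, and in 0.137% of 27025 genes. The bases before the start of Hsp90b1, Canx and Hspa5 are shown, since these are the most widespread members that hold it. Capitals mark the element, which Hsp90b1 holds at positions -212 to -194 and -107 to -89, Canx at -145 to -127 and Hspa5 at -65 to -47.
Hsp90b1, chr10:86705445-86705694, minus strand: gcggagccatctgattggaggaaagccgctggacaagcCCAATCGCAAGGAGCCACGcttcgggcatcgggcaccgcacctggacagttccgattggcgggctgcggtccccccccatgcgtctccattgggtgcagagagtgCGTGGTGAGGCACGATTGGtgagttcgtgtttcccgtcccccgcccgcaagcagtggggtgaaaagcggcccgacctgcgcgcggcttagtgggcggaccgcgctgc
Canx, chr11:50325674-50325923, minus strand: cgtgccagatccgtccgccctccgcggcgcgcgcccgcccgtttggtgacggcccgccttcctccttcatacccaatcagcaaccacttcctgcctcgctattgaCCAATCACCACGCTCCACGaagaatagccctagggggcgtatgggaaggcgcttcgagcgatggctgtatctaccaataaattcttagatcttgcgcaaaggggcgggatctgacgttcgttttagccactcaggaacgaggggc
Hspa5, chr2:34771840-34772089, plus strand: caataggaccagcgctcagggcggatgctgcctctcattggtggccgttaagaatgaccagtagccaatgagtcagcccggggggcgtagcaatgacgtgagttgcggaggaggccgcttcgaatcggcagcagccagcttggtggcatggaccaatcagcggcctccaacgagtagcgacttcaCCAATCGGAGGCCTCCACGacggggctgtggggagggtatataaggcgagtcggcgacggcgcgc
The 6 genes were detected in 12, 14, 14, 11, 4 and 4 cells in the order named, so the match did not go with 1 level.

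Companion lists were set beside the reticulum members. Of 14 genes of the unfolded protein response 12 were detected in some cell, where the share of all genes was 29.2%, and 2 in none. In every cell 0 were detected, near the background of 0.454% of all genes, and the median gene of the list was detected in 2 cells. Herpud1, a membrane protein of reticulum-associated degradation, was high in 7 cells with up to 748, Derl2 was detected in 10 and Sel1l in 5. Of 18 further folding factors 16 were detected in some cell, 0 in every cell and 2 in none, beside the same shares of all genes. Calu, calumenin, was detected in 11 cells, Serpinh1, the collagen chaperone HSP47, in 8 with up to 242, and Uggt1, which senses misfolded glycoproteins, in 4. Among 10 prolyl isomerases of several compartments Ppia, cyclophilin A, was detected in all 14 cells, with a mean log2(RPKM + 1) of 8.89 ± 1.23 (SD, n = 14 cells of 1 mouse), Ppib in 12 and Fkbp1a in 10.

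In the remaining companion lists, counts of 0 genes in every cell are near the background for lists of these sizes. Of 13 further J proteins 0 were detected in every cell and 1 in none, with Dnajc8, Dnajb12 and Dnajc10 in 8, 10 and 6 cells. Of 18 further cochaperones 0 were in every cell and 2 in none, with Tomm34 in 11 cells and Ppid in 7. Ppid had 3219 in GL_M_51 and 281 in GL_M_55, the cells without Hsp90ab1. It was also at 917 in GL_M_85 and 145 in GL_M_36, where Hsp90ab1 was at 1139 and 1026. Of 6 further genes grouped here with the small heat shock proteins by name, 4 were undetected, Hspb7 among them, and Hspb11 was detected in 10 cells. Cryab, alpha B crystallin, was detected in 5, with 640.3 in GL_M_60, the cell that was also highest for Hspb8 and Bag3. But Cryab was also at 540 in GL_M_47, 123 in GL_M_85 and 105 in GL_M_30, where Hspb8 was at 0 and Bag3 below 1. In the list of nascent chain factors, 4 genes had a row, and Naca, Btf3 and Dnajc2 were detected in 7, 7 and 5 cells.

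Cells differed in how many chaperone genes they carried and in how much of their RNA these took. GL_M_47 had 28 of the 48 detected, GL_M_36 27 and GL_M_30 26, while GL_M_29 and GL_M_51 had 10 and GL_M_55 11. The number followed the genes detected per cell, with a Pearson r of 0.80 and a Spearman rho of 0.83 over 14 cells of 1 mouse, and with r 0.69 without GL_M_36 and GL_M_47. Against read totals the r was -0.13, and 0.20 without GL_M_51 and GL_M_60. GL_M_29 is low for its gene count, with 10 members among 2524 genes, and GL_M_30 high, with 26 among 3082. Members took 1.62% ± 0.448 of a cell's RPKM total (SD, n = 14 cells of 1 mouse), from 1.04% in GL_M_29 to 2.36% in GL_M_65, and this share had an r of -0.20 and a rho of 0.01 with the gene count, and an r of 0.29 without GL_M_36 and GL_M_47.

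Few transcripts made up that share. Ptges3, Canx, Hsp90b1, Hsp90ab1 and St13 together took 71.2% ± 11.5 of the members' RPKM (SD, n = 14 cells), from 47.6% in GL_M_91 to 94.8% in GL_M_55. Canx was the highest member in 6 cells, Ptges3 in 7 and Hsp90ab1 in GL_M_91. The 12 reticulum genes held 17.6% of the members' RPKM in GL_M_91 and 79.2% in GL_M_55, with 71.1% in GL_M_60. The bar plot of shares by cell shows both parts.

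**Figure D5:**
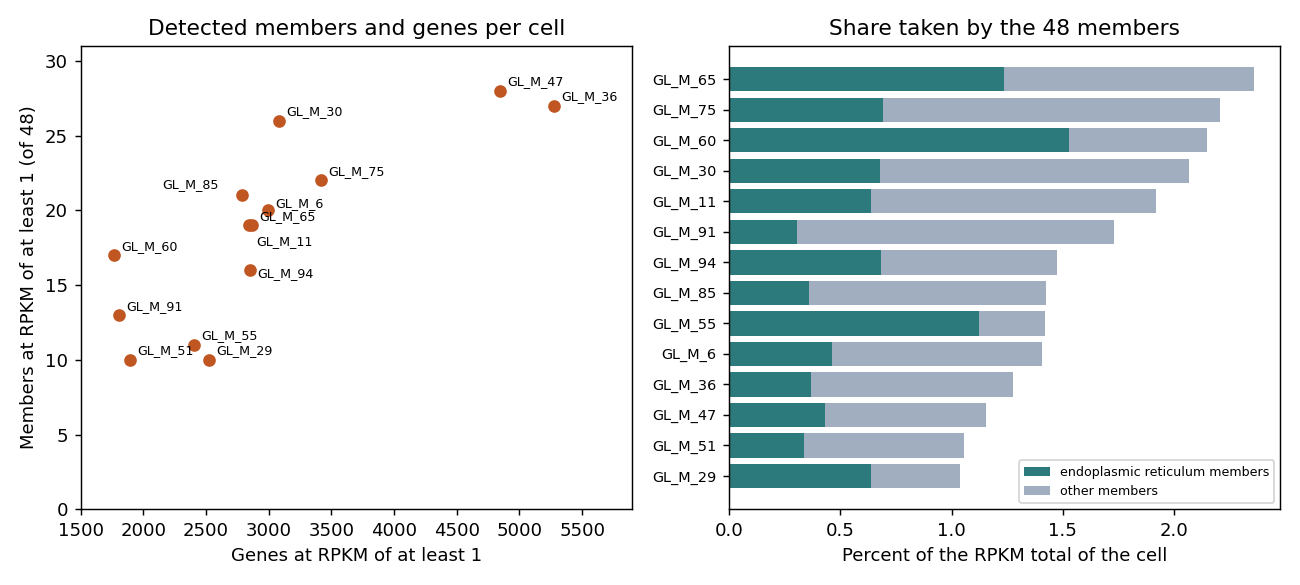
Left, members detected of 48 against all detected genes in each of 14 cells. Right, percent of the cell's RPKM total taken by the members, split into the 12 reticulum genes and the others. GL_M_29 is lowest at 1.04% and GL_M_65 highest at 2.36%.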

How the data were processed

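Expression of 14 single cells of 1 mouse was analysed, all in 1 group by their labels. The values are RPKM made by the authors, deposited as 1 table with a column per cell. Per the submitters' processing notes the tools were TopHat2 2.0.12 and HTSeq 0.6.1 with build mm10. Not given in the sources used here are the annotation release, the filter on cells, and how strand and reads with several matches were treated. Ensembl IDs were paired with symbols through a table of gene names, and 34488 of 35271 matched, and positions and lengths come from GENCODE M21 (GRCm38).

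From these values, read totals were recovered with the lengths of genes with 1 transcript. Per cell, 84.6% to 89.7% of the values of these genes below 50 reads were then whole within 0.02 reads. The recovery of totals was tested on simulated data. A floor of 3 reads on 1 kb equals an RPKM of 0.126 to 0.455, which covers counting error only, since the labels name no molecular identifiers. Means carry the SD over cells and, for levels, are restricted to genes with no cell at 0. No test was run, as cells of 1 animal are not replicates. Shared sequence is the share of a gene's 50-base words found in transcripts of other genes, on both strands.

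The members, 11 companion lists and 7 marker lists were chosen with earlier results of these data known. The text names all members, and of each companion list the 3 highest genes by mean log2 level and any in all cells. Of the marker lists it names the 2 highest and those at 10 or more in a left-out cell. Some genes that these rules would name are not reported here. Tbx18, the lack of Hsp90ab1 beside Hsp90b1, Ppid and Cryab by cell, and genes paired by cell were picked after their values were seen. So were the markers or marker counts given for GL_M_29, GL_M_51, GL_M_75, GL_M_85 and GL_M_91. Hspa14 had no row under that symbol. Alternatives changed the detection limit, the pseudocount of 1, the scaling, the cells and the background. Python 3.11.15, pandas 2.3.3, numpy 2.4.6, scipy 1.17.1 and matplotlib 3.10.9 were used.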

Additional observations from a re-analysis of the deposited data

How the results depend on the processing

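The counts depended on the limit of detection. Members detected in every cell were 3 at an RPKM of at least 1, 1 at 5 or more, 1 at 10 or more and 10 for any value above 0. Members in 7 or more cells were 17, 11 at 10 or more and 31 for any value above 0. With any value above 0, the median was 29.5 members per cell in place of 19, 9 cells per member in place of 4 and 7 CCT subunits per cell in place of 3. These shifts follow from the limits themselves. The members' share in 7 or more cells was 5.97 times that of all genes, but 1.86 times among genes detected in some cell and 1.54 times among genes with a mean RPKM of 1 or more, where by construction fewer silent genes enter the background. Leaving out 1 cell at a time gave 3 members in every cell throughout, 14 to 17 in at least 50% of the cells, a median of 19 members per cell, 4 cells per member and 3 CCT subunits, and a share of RPKM of 1.56% to 1.66%. With RPKM weighted by GENCODE M21 gene length, an estimate of reads, the share was 1.35%. This is approximate, since for most members these lengths did not give whole reads. The remaining counts at limits of 5 and 10 stayed within 1 SD between cells or, for counts, within 1.5 times. So did counts, share and mean levels on omission of GL_M_30 and GL_M_55 or of GL_M_36 and GL_M_47. Counts and share also did on omission of members with 50% or more shared sequence, and mean log2 levels under pseudocounts of 0.1 and 0.01. Rescaling to a common sum was run only for members in every cell, members per cell and mean levels, which stayed within these limits. No paired analysis was possible because there is 1 group. Depth limits values below the floor of 3 reads, and reads are not independent molecules where cDNA is amplified.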
